A study of Mus musculus with 12 samples.

Results

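ERK feedback and output genes were followed through RNA and ribosome footprints of mouse embryonic fibroblasts (MEFs) with and without the tumour suppressor gene Arf. The 10 genes were Dusp4, Dusp5, Dusp6, Spry1, Spry2, Spry4, Spred1, Etv4, Etv5 and Phlda1, chosen by name for their place in the ERK pathway and read out of the 20661 genes in the count tables. All 10 were present in every library, and all 10 passed the filter on low counts in every fit. The study set out to learn how loss of ARF alters translation, and each group was measured by RNAseq and by ribosome profiling, which sequences the stretches of mRNA that ribosomes shield from nuclease (footprints).

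There were 3 groups with 2 replicates per assay, 12 libraries in all. WT-shSCR MEFs were wildtype cells carrying a lentiviral scrambled short hairpin RNA. WT-shARF MEFs were wildtype cells carrying a hairpin against Arf. Arf-/--shSCR MEFs came from the Arf knockout mouse, in which a neo cassette takes the place of the Arf-specific exon of Cdkn2a, and carried the scrambled hairpin. All cells were primary MEFs labelled as passage 4, transduced with lentivirus and selected in puromycin. The labels give the strain C57BL/6J for wildtype cells and B6.129X1-Cdkn2atm1Cjs/KaiJ for knockout cells, while the methods of the study give B6129SF2/J for wildtype, so that genotype and strain background cannot be told apart. Neither labels nor methods say whether replicates were separate embryos or cultures, and p-values therefore measure only the spread between these libraries.

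Growth factor receptors switch on RAS, RAF, MEK and ERK in turn, and active ERK induces genes that shut the same pathway down again. Dual-specificity phosphatases (DUSPs) take the phosphates off ERK, Sprouty and Spred proteins hold back signalling between receptor, RAS and RAF, and the ETS factors ETV4 and ETV5 carry the signal on to further genes. Because their short-lived mRNAs follow ERK activity closely, RNA of these genes is widely used as a readout of the pathway in cells and tumours. In fibroblasts the same genes respond to serum.

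Library totals on genes were 1578627 to 3989908 counts in RNAseq (median 2560632) and 2544319 to 5157572 in ribosome profiling (median 3954735). The 10 genes had 16 to 346 counts each in an RNAseq library and 15 to 574 in a ribosome profiling library, so the least abundant of them were measured with a large counting error. Cdkn2a, the gene hit by the hairpin and the knockout, went against one label. Its RNA exceeded that of WT-shSCR MEFs in the WT-shARF-labelled libraries, with a log2 fold change of 3.91 ± 0.16 (SE, adjusted p = 5.57e-18, edgeR), and its footprints by 2.99 ± 0.14 (SE, adjusted p = 3.49e-17, edgeR). After knockout its RNA differed by -0.54 ± 0.25 (adjusted p = 0.197, edgeR), which did not pass. Its footprints differed by -1.10 ± 0.19 (adjusted p = 4.67e-05, edgeR). Counts per gene do not separate ARF from INK4A, the other product of Cdkn2a, and every direction given below for the knockdown rests on the label. By immunoblot, the study reported that ARF was depleted by the hairpin as well as by the knockout. Protein was not analysed here. All 10 fibroblast markers, collagens and vimentin among them, were detected in all 12 libraries. Their summed RNA was 21350 and 24467 CPM in WT-shSCR, 22082 and 22449 CPM in the WT-shARF-labelled libraries and 17465 and 16352 CPM in Arf-/--shSCR MEFs. Single markers went in different directions. In the same order of groups, mean RNA of Fn1 was 8565, 5232 and 3079 CPM. Mean RNA of Col3a1 was 675, 1516 and 1271 CPM, that of Dcn 2.46, 7.99 and 9.85 CPM, and that of Vim 5156, 5058 and 4941 CPM.

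Dusp4 lies on chromosome 8 from 34807297 to 34819894 on the plus strand of GRCm38 (mm10), Dusp5 on chromosome 19 from 53529109 to 53542431 on the plus strand, and Dusp6 on chromosome 10 from 99263231 to 99267489 on the plus strand. Spry1 lies on chromosome 3 from 37639947 to 37644598 on the plus strand, Spry2 on chromosome 14 from 105891947 to 105896819 on the minus strand, and Spry4 on the minus strand of chromosome 18. Spred1 lies on chromosome 2 from 117121374 to 117182279 on the plus strand. Etv4 lies on chromosome 11 from 101769742 to 101785371 and Etv5 on chromosome 16 from 22381309 to 22439719, both on the minus strand. Phlda1 lies on chromosome 10 from 111506286 to 111508645 on the plus strand, the chromosome that also holds Dusp6. Reads were counted on exonic coding sequence, which spans 900 nt in Spry4, the shortest, and 1584 nt in Etv5, the longest. Coding sequence sits in 1 block in Spry1, Spry2, Spry4 and Phlda1 and is split over 3 to 13 blocks in the others. An antisense gene, AC137853.2, spans 338 nt of the coding sequence of Dusp5, and a long noncoding RNA gene on the opposite strand, Gm28592, spans 1045 nt of that of Phlda1. The strand setting of the counting was not given in the sources used here, so reads of these pairs may not be separated.

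Levels are given as CPM, in which counts are divided by effective library size, using edgeR's TMM factors within each assay. Dusp5 and Dusp6 led in RNA, and Phlda1 led in footprints. To compare levels between genes, CPM was divided by the coding length. On this scale Dusp5 had the highest RNA level, with a median over the 6 RNAseq libraries of 56.8 CPM per kb, followed by Dusp6 with 51.5 CPM per kb, and these do not differ beyond their spread. Both stood above all other members, since the lowest Dusp6 library (47.4 CPM per kb) was higher than the highest Phlda1 library (38.0 CPM per kb). From Phlda1 (31.2 CPM per kb) through Dusp4 (30.6), Etv4 (26.4), Spry1 (21.9), Spred1 (20.5), Spry2 (19.0) and Etv5 (14.3) down to Spry4 (10.5 CPM per kb), the range of each gene overlapped that of the next.

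In footprints per kb the order was different at the top. Phlda1 had a median of 86.8 CPM per kb over the 6 ribosome profiling libraries, and its lowest library (83.0 CPM per kb) was above the highest library of Dusp5 (55.0 CPM per kb). Dusp5 (52.2), Dusp4 (49.7) and Dusp6 (45.9 CPM per kb) followed with overlapping ranges. A gap then separated Dusp6, whose lowest library had 42.3 CPM per kb, from Etv5, whose highest had 22.9 CPM per kb. Below it the medians were 18.3 CPM per kb for Etv5, 16.5 for Spry2, 16.0 for Spry4, 12.9 for Spred1, 11.9 for Spry1 and 10.3 for Etv4, each with a range that overlapped the next.

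Of the phosphatases, Dusp4, a nuclear enzyme that acts on ERK and other MAP kinases, was the one with a difference between groups. Dusp4 footprints were 77.3 and 77.1 CPM in the WT-shSCR replicates, 59.3 and 48.1 CPM in those labelled WT-shARF, and 59.5 and 55.1 CPM in Arf-/--shSCR MEFs. Both WT-shSCR libraries stood above all 4 others. Dusp4 RNA was 35.8 and 45.2 CPM in WT-shSCR, 23.4 and 40.6 CPM in the WT-shARF-labelled libraries, and 30.6 and 37.2 CPM in Arf-/--shSCR MEFs, and these ranges overlapped.

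Dusp5, a nuclear phosphatase specific to ERK, and Dusp6, its cytoplasmic counterpart, were not called in any comparison, which does not show them to be equal. Dusp5 RNA was 60.7 and 70.1 CPM in WT-shSCR, 57.3 and 82.2 CPM in the WT-shARF-labelled libraries and 59.7 and 79.1 CPM in Arf-/--shSCR MEFs. Its footprints were 63.3 and 41.0, 59.3 and 63.3, and 60.8 and 50.6 CPM in the same order. The groups overlapped in both assays. Dusp6 RNA was 55.4 and 62.4 CPM in WT-shSCR, 61.6 and 56.1 CPM in the WT-shARF-labelled libraries and 54.2 and 64.4 CPM in Arf-/--shSCR MEFs. Dusp6 footprints were 66.6 and 51.9, 48.3 and 59.3, and 53.0 and 52.0 CPM. Dusp6 had the tightest RNA values of the phosphatases, with every library between 54.2 and 64.4 CPM.

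The Sprouty genes, which encode adaptors that restrain receptor signalling to RAS and RAF, were not called as RNA in any comparison. RNA of all 3 was lowest in the WT-shARF-labelled libraries, for Spry2 by as little as 15.9 against 16.2 CPM. Such gaps were common: RNA ranges of these libraries did not overlap WT-shSCR for 49.5% of all genes tested, or Arf-/--shSCR for 47.1%. Spry2 RNA was 16.2 and 19.8 CPM in WT-shSCR, 15.9 and 14.0 CPM in the WT-shARF-labelled libraries, and 29.5 and 26.4 CPM in Arf-/--shSCR MEFs. Its footprints were 19.8 and 11.2, 7.11 and 11.4, and 23.2 and 21.9 CPM in the same order. Both Arf-/--shSCR libraries were the highest of their assay, and the WT-shARF-labelled libraries held the lowest value in each.

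Spry1 RNA was 21.1 and 20.4 CPM in WT-shSCR, 15.9 and 17.8 CPM in the WT-shARF-labelled libraries, and 20.7 and 20.8 CPM in Arf-/--shSCR MEFs. Spry1 footprints were 9.09 and 11.2, 9.95 and 15.0, and 13.3 and 11.0 CPM. The lower RNA values in the WT-shARF-labelled libraries had no counterpart in footprints, where all groups overlapped.

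Spry4, the least abundant member in RNA, ranked the groups differently in RNA and in footprints. Spry4 RNA was 10.6 and 15.3 CPM in WT-shSCR, 8.49 and 4.99 CPM in the WT-shARF-labelled libraries, and 10.2 and 8.65 CPM in Arf-/--shSCR MEFs, from 16 to 28 counts per library. Spry4 footprints were 13.6 and 10.8, 9.24 and 15.2, and 20.8 and 15.8 CPM. RNA was highest in both WT-shSCR libraries and footprints were highest in both Arf-/--shSCR libraries. Spred1 recruits neurofibromin to the membrane, where it turns RAS off. Its RNA was 28.6 and 25.5, 27.6 and 36.1, and 35.7 and 30.3 CPM in WT-shSCR, in the WT-shARF-labelled libraries and in Arf-/--shSCR MEFs, and its footprints were 22.7 and 9.68, 12.4 and 19.3, and 17.7 and 21.3 CPM. The WT-shSCR replicates of Spred1 footprints lay at both ends of its range, so no group stood apart there.

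Etv4 and Etv5, transcription factors of the PEA3 group that are induced by ERK, were not called in any comparison. Etv4 RNA was 35.0 and 36.3 CPM in WT-shSCR, 45.1 and 41.8 CPM in the WT-shARF-labelled libraries, and 30.6 and 40.6 CPM in Arf-/--shSCR MEFs. The WT-shARF-labelled libraries had the highest Etv4 RNA. Etv4 footprints were 17.2 and 5.81, 11.0 and 23.1, and 20.02 and 12.8 CPM, and the replicates of each group differed by more than the groups did. Etv5 RNA was 25.6 and 17.8, 21.2 and 26.4, and 24.02 and 16.4 CPM, and its footprints were 25.0 and 27.1, 30.9 and 36.2, and 32.2 and 23.0 CPM. For Etv5, the groups were apart only in footprints, between WT-shSCR and the WT-shARF-labelled libraries.

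Phlda1 encodes a protein with a pleckstrin homology-like domain, and growth factors induce it. Phlda1 RNA was 43.3 and 45.9 CPM in WT-shSCR, 46.2 and 29.5 CPM in the WT-shARF-labelled libraries, and 31.7 and 32.4 CPM in Arf-/--shSCR MEFs. Its footprints were 106 and 114, 104 and 119, and 105 and 101 CPM. RNA of both Arf-/--shSCR libraries was below that of both WT-shSCR libraries, while the footprints of the groups lay close together.

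**Figure D1:**
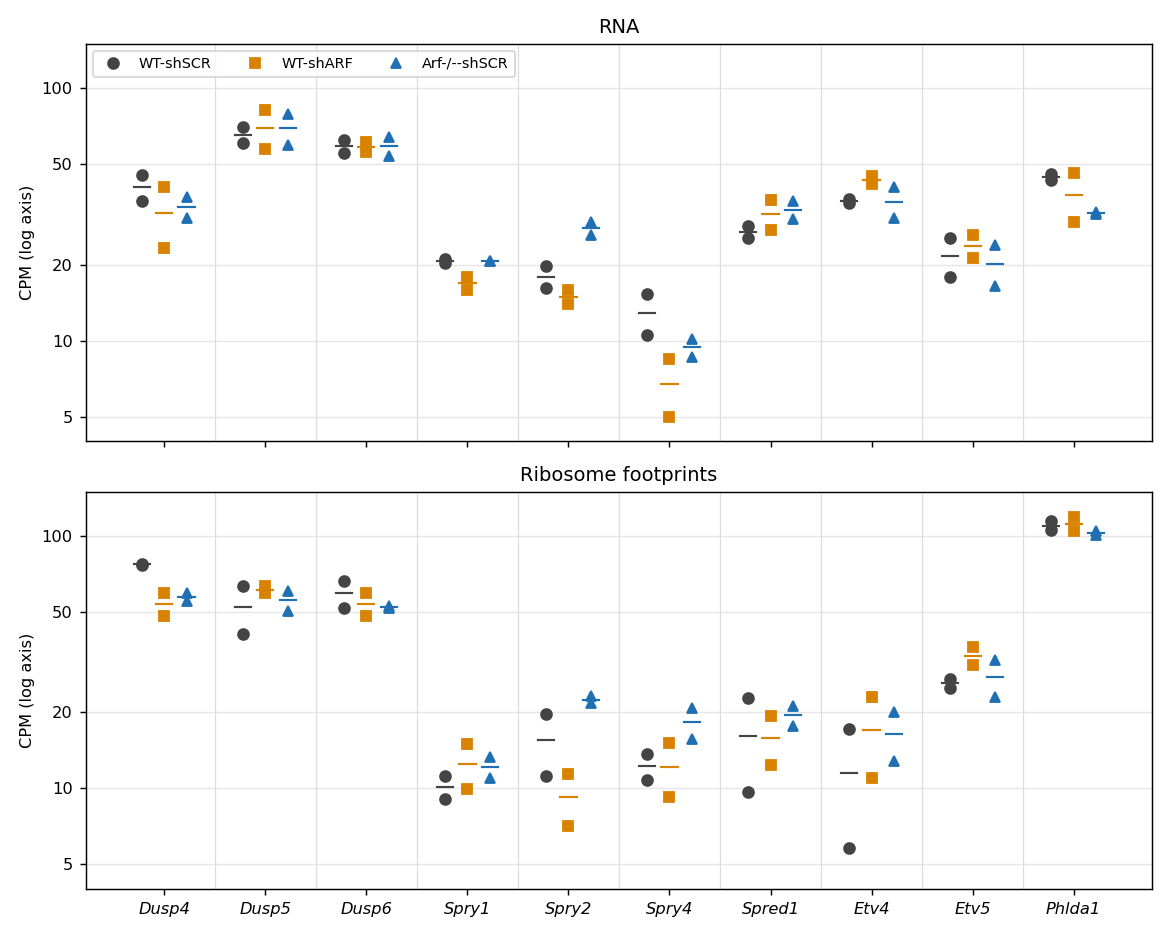
CPM (log axis) of the 10 genes in each RNAseq library (top) and each ribosome profiling library (bottom), with 1 point per library and a bar at the mean of the 2 replicates of WT-shSCR (circles), WT-shARF as labelled (squares) and Arf-/--shSCR MEFs (triangles). Phlda1 footprints lie between 101 and 119 CPM in all 6 libraries, and both Arf-/--shSCR points of Spry2 lie above the other groups in each panel.

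The first comparison asks what changed with knockout of Arf, Arf-/--shSCR against WT-shSCR MEFs. Dusp4 footprints fell by 0.46 ± 0.16 on the log2 scale (SE; adjusted p = 0.045, edgeR), the single call among the 10 genes, and no other member was called in footprints or RNA. In RNA, 0 of 10 members were called by edgeR, while 7.93% of the 10659 genes tested were. The number at an unadjusted p under 0.05 was 0 of 10, and DESeq2 called 0 of the 10 to which it gave an adjusted p. In footprints 1 of 10 was called, against 18.5% of 10737 genes tested. The median log2 fold change of the members was -0.02 in RNA and 0.13 in footprints, beside medians of -0.004 and -0.001 over all genes tested.

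The Dusp4 call was lost with DESeq2 (adjusted p = 0.137), with no filter and without either Arf-/--shSCR replicate, while its log2 fold change stayed between -0.51 and -0.40 in all 11 alternatives. Without either WT-shSCR replicate edgeR called 0 genes of the whole table, so those fits say nothing of Dusp4. Its RNA differed by -0.26 ± 0.25 on the log2 scale (SE; adjusted p = 0.587, edgeR). The values of the other members reached from -0.49 ± 0.24 for Phlda1 RNA (95% interval -0.99 to 0.01; adjusted p = 0.235, edgeR) to 0.64 ± 0.31 for Spry2 RNA (95% interval -0.01 to 1.28; adjusted p = 0.23, edgeR). For Dusp6 RNA the log2 fold change was -0.001 ± 0.21, with a 95% interval from -0.45 to 0.44. The CPM ranges of the groups did not overlap for 4 of 10 members in RNA and for 4 of 10 in footprints, against 51.6% and 57.6% of all genes tested. In RNA these were Spry2 and Spred1, higher, and Spry4 and Phlda1, lower, and in footprints Spry2 and Spry4, higher, and Dusp4 and Phlda1, lower.

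Markers of another cell type moved with these groups. The 10 macrophage markers summed to 494 and 524 CPM of RNA in WT-shSCR MEFs, 235 and 171 CPM in the WT-shARF-labelled libraries, and 34.2 and 57.1 CPM in Arf-/--shSCR MEFs. Their footprints summed to 616 and 599, 253 and 211, and 48.9 and 58.9 CPM. All 10 were detected in WT-shSCR and in the WT-shARF-labelled libraries, and in Arf-/--shSCR RNA 9 and 8 of 10 were, with Aif1 at 0 in both libraries and Fcgr1 at 0 in 1. The 8 epithelial and mesothelial markers ran in another order, with summed RNA of 96.8 and 95.6 CPM in WT-shSCR, 57.3 and 69.4 CPM in the WT-shARF-labelled libraries and 158 and 180.3 CPM in Arf-/--shSCR MEFs. Their footprints summed to 90.6 and 110.0, 73.6 and 94.9, and 182 and 184 CPM. Krt19 held the largest part, with mean RNA of 74.2, 46.0 and 94.8 CPM in the same order. Krt8 (0.57, 0.77 and 17.5 CPM) and Upk3b (1.07, 0.50 and 15.9 CPM) were higher in RNA of Arf-/--shSCR MEFs. Epcam (0.83, 0.59 and 0.40 CPM) and Cdh1 (0.19, 1.51 and 1.16 CPM) were scarce in RNA of every group. The 6 muscle markers, which include contractile genes of fibroblasts, summed to 15245 and 14997 CPM of RNA in WT-shSCR, 10812 and 9671 CPM in the WT-shARF-labelled libraries and 14416 and 14526 CPM in Arf-/--shSCR MEFs. The part of these cells in the values of Dusp4, Spry2 or any other member was not tested, and in bulk samples fewer cells of a type and less RNA per cell cannot be told apart.

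The second comparison asks what changed in the WT-shARF-labelled libraries, against WT-shSCR MEFs. None of the 10 genes passed the threshold in RNA or in footprints. In RNA, 0 of 10 were called by edgeR beside 7.28% of 10503 genes tested, with 1 member, Spry4, at an unadjusted p under 0.05, and DESeq2 called 0 of the 7 to which it gave an adjusted p. In footprints, 0 of 10 were called by edgeR beside 11.1% of 10307 genes, with 1 member, Dusp4, at an unadjusted p under 0.05, and DESeq2 called 0 of 7. The median log2 fold change of the members was -0.15 in RNA and 0.01 in footprints, beside -0.001 and -0.003 over all genes.

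Dusp4 footprints differed by -0.54 ± 0.18 on the log2 scale (SE; 95% interval -0.92 to -0.17), with an adjusted p of 0.0505 in edgeR, just outside the threshold, and 5 of the 7 alternatives that kept all libraries put it inside. The knockout comparison shares its WT-shSCR libraries with this one, so the like values of Dusp4 in both are not independent. Spry4 RNA differed by -0.997 ± 0.48 (95% interval -1.98 to -0.01; adjusted p = 0.231, edgeR), a wide interval from 16 and 21 counts in the WT-shARF-labelled libraries and 28 and 24 in WT-shSCR. Spry2 footprints differed by -0.73 ± 0.42 (adjusted p = 0.299, edgeR). The remaining values lay between -0.31 for Spry1 RNA and 0.56 for Etv4 footprints. CPM ranges did not overlap for 4 of 10 members in RNA (Etv4, higher, and Spry1, Spry2 and Spry4, lower) and for 2 of 10 in footprints (Etv5, higher, and Dusp4, lower), against 49.5% and 51.5% of all genes tested.

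The third comparison, Arf-/--shSCR MEFs against the WT-shARF-labelled libraries, tests directly whether knockout and knockdown differ. Spry2 footprints were higher in Arf-/--shSCR MEFs by 1.21 ± 0.31 on the log2 scale (SE; 95% interval 0.56 to 1.85; adjusted p = 0.0193, edgeR), from 118 and 111 counts against 20 and 55. DESeq2 gave this difference an adjusted p of 0.0442. Spry2 RNA differed in the same direction, by 0.91 ± 0.29 (95% interval 0.30 to 1.52; adjusted p = 0.118, edgeR), which did not pass. The footprint change of Spry2 was above that of 98.1% of all genes tested in this comparison, and its RNA change above that of 96.3%.

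No other member was called between these groups. In RNA the count was 0 of 10 by edgeR, beside 2.57% of 10632 genes tested, with 1 member, Spry2, at an unadjusted p under 0.05, and DESeq2 called 0 of the 9 to which it gave an adjusted p. In footprints it was 1 of 10, beside 8.23% of 10941 genes. The Spry2 call was lost without Arf-/--shSCR replicate 1 (adjusted p = 0.071, edgeR) and held without replicate 2. Without replicate 1 or 2 of the WT-shARF-labelled libraries edgeR called 0 and 1 genes of the whole table, so the loss of Spry2 there (adjusted p = 0.33 and 0.298) says nothing of this gene. Its log2 fold change stayed between 0.96 and 1.61 in all 11 alternatives. Dusp4 footprints, lower than WT-shSCR in both groups, differed between them by 0.07 ± 0.17 (95% interval -0.28 to 0.43). Spry4 differed by 0.54 ± 0.47 in RNA and 0.52 ± 0.32 in footprints, neither past the threshold. CPM ranges did not overlap for 4 of 10 members in RNA (Spry1, Spry2 and Spry4, higher, and Etv4, lower) and 2 of 10 in footprints (Spry2 and Spry4, higher), against 47.1% and 50.6% of all genes.

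**Figure D2:**
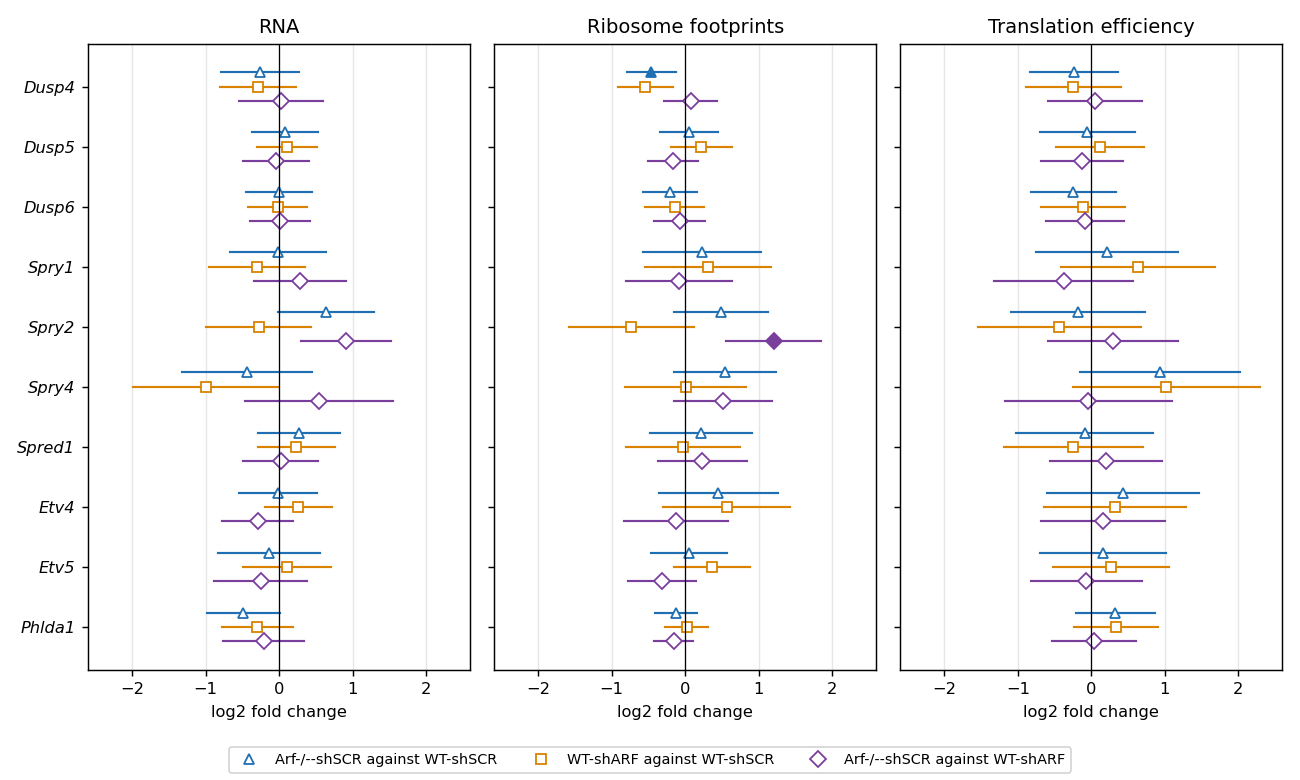
Log2 fold changes of the 10 genes from edgeR in RNA (left), ribosome footprints (middle) and translation efficiency (right), with 95% intervals as lines, for Arf-/--shSCR against WT-shSCR (triangles), WT-shARF as labelled against WT-shSCR (squares) and Arf-/--shSCR against WT-shARF as labelled (diamonds). Filled symbols passed an adjusted p of 0.05, which holds for Dusp4 footprints after knockout and Spry2 footprints in the direct comparison, while the intervals of translation efficiency all cross 0.

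Translation efficiency (TE) is footprints relative to RNA, and its change was tested through the assay by condition interaction over the 8 libraries of both groups. TE of none of the 10 genes was called. In edgeR the count was 0 of 10 with 0 at an unadjusted p under 0.05 in each comparison, beside 0.194% of 11314 genes called after knockout, 0.0354% of 11289 in the WT-shARF-labelled libraries and 0.043% of 11632 in the direct comparison. DESeq2 gave an adjusted p to 0 of 10 members in the comparisons with WT-shSCR and to 2 in the direct comparison, and called neither. With so few calls among all genes, these counts say little about small changes, and the intervals show what the depth allowed.

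Spry4 had the largest TE differences of the 10 genes, 0.94 ± 0.52 after knockout (95% interval -0.15 to 2.03; adjusted p = 0.776, edgeR) and 1.02 ± 0.63 in the WT-shARF-labelled libraries (95% interval -0.25 to 2.29; adjusted p = 0.81, edgeR). Over the alternatives they ran from 0.54 to 1.47 and from 0.15 to 1.68. These values share the WT-shSCR libraries, and between knockout and knockdown Spry4 TE differed by -0.04 ± 0.55. For Dusp6 the TE difference in the WT-shARF-labelled libraries was -0.11 ± 0.28 (95% interval -0.68 to 0.46). Over the 10 genes TE differences after knockout ran from -0.24 for Dusp6 to 0.94 for Spry4, with a median of 0.05 beside -0.04 over all genes. In the WT-shARF-labelled libraries they ran from -0.43 for Spry2 to 1.02 for Spry4, with a median of 0.19 beside 0.01 over all genes.

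Within each group, the ratio of footprint CPM to RNA CPM set the members far apart from each other. Phlda1 had the highest ratio of the 10 genes in all groups and Etv4 the lowest, although the rank of Etv4 rests on single replicates. Without WT-shSCR replicate 2 the log2 ratio was -1.03 for Etv4 and -1.21 for Spry1. In WT-shARF-labelled replicate 2 alone, Etv4 had 23.1 CPM of footprints and 41.8 of RNA, and Spred1, with the lower ratio, 19.3 and 36.1. In Arf-/--shSCR replicate 1 alone, Etv4 had 20.02 and 30.6 CPM, and Spred1, again with the lower ratio, 17.7 and 35.7. Phlda1 had a log2 ratio of 1.30 in WT-shSCR, 1.57 in the WT-shARF-labelled libraries and 1.68 in Arf-/--shSCR MEFs, higher than that of 93.5%, 96.9% and 97.0% of the 10997 genes compared. Etv4 had -1.63, -1.35 and -1.12, higher than 9.04%, 12.1% and 16.1% of genes. The median log2 ratio of all genes was -0.08, -0.07 and -0.06. Libraries of each assay were prepared and scaled separately, so a ratio of 0 has no meaning of its own and the place of a gene among all genes is what can be compared.

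Dusp4 had log2 ratios of 0.93, 0.75 and 0.76. In all 6 ribosome profiling libraries its CPM was above that of all 6 RNAseq libraries, and Phlda1 shared this pattern with it, as did 13.6% of all genes. Its fellow phosphatases lay near the middle, with -0.33, -0.19 and -0.32 for Dusp5 and 0.01, -0.13 and -0.18 for Dusp6. Etv5 had positive ratios of 0.26, 0.50 and 0.45, unlike Etv4. Spry1 (-1.03, -0.44 and -0.77) and Spred1 (-0.74, -1.004 and -0.76) were low with Etv4, and for these 3 genes all 6 footprint values were below all 6 RNA values, as for 18.5% of all genes. Spry2 had -0.21, -0.69 and -0.31. Spry4 moved most between groups, from -0.08 in WT-shSCR to 0.86 and 0.96, the difference that did not pass as a change of TE.

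**Figure D3:**
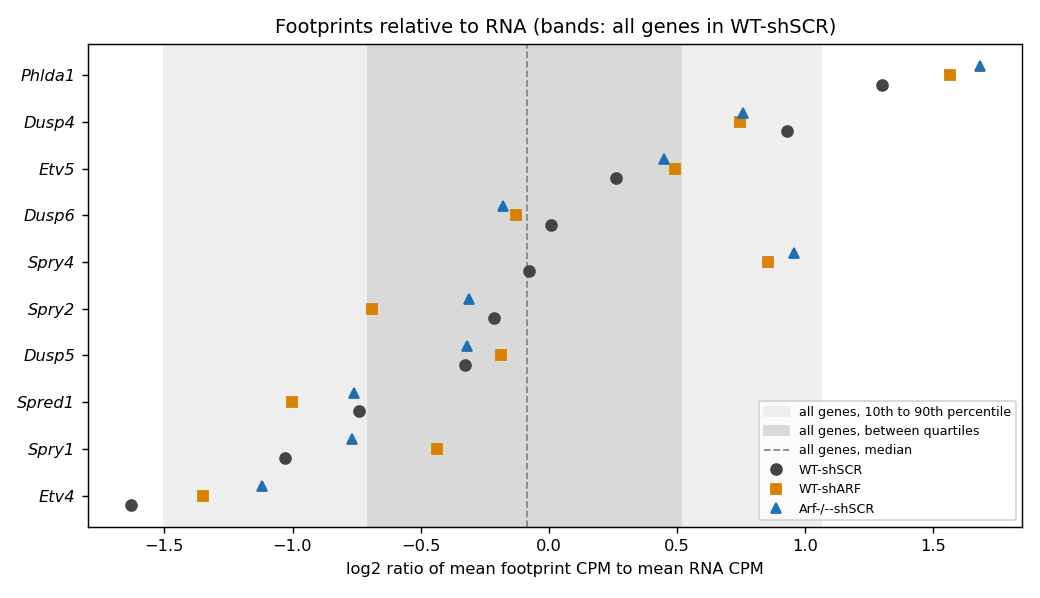
Log2 ratio of mean footprint CPM to mean RNA CPM (horizontal axis) of the 10 genes in WT-shSCR (circles), WT-shARF as labelled (squares) and Arf-/--shSCR MEFs (triangles), each from 2 replicates per assay. Shaded bands show all genes in WT-shSCR MEFs, from the 10th to the 90th percentile (light) and between the quartiles (dark), and Phlda1 lies to the right of the wide band and Etv4 of WT-shSCR MEFs to its left.

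Other genes of the pathway were read from 4 lists, whose counts stand beside 7.93% of all genes called in RNA and 18.5% in footprints after knockout, and 7.28% and 11.1% in the WT-shARF-labelled libraries. The kinase cascade itself, with adaptors, RAS, RAF, MEK and ERK genes, had 22 genes, all tested. After knockout 1 was lower and 0 were higher in RNA, and 2 were lower and 0 higher in footprints. In RNA this was Shc1, which encodes an adaptor that couples receptors to RAS, with a log2 difference of -0.58 ± 0.16 (SE; adjusted p = 0.0328, edgeR). In footprints they were Map2k1, which encodes MEK1, at -0.51 ± 0.14 (adjusted p = 0.00679, edgeR) and Rps6ka1, an ERK-activated kinase gene, at -1.15 ± 0.39 (adjusted p = 0.0341, edgeR). In the WT-shARF-labelled libraries Shc1 RNA was again lower, by -0.79 ± 0.15 on the log2 scale (adjusted p = 0.00112, edgeR), and no cascade gene was called in footprints, with 6 at an unadjusted p under 0.05 and 0 called by DESeq2. The median of the cascade was -0.03 in RNA and 0.06 in footprints after knockout, and -0.002 and -0.11 in the WT-shARF-labelled libraries.

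Receptors and ligands made up a list of 17 genes, of which 13 to 16 were tested. After knockout 2 were higher and 1 lower in RNA, and 1 higher and 2 lower in footprints. Pdgfra, a PDGF receptor, had the largest rise, with 24.02 and 10.4 CPM of RNA in Arf-/--shSCR MEFs against 3.77 and 2.55 CPM in WT-shSCR, a log2 difference of 2.38 ± 0.53 (adjusted p = 0.00795, edgeR). Its footprints rose by 2.30 ± 0.39 (adjusted p = 4.94e-05, edgeR). Met, the HGF receptor, rose in RNA by 1.10 ± 0.28 after knockout and by 1.02 ± 0.28 in the WT-shARF-labelled libraries. Its footprints were called in neither comparison, with means of 14.6 CPM in WT-shSCR, 14.9 CPM in the WT-shARF-labelled libraries and 26.1 CPM in Arf-/--shSCR MEFs. Pdgfb RNA had 32 and 19 counts in WT-shSCR, 7 and 10 in the WT-shARF-labelled libraries and 7 and 5 in Arf-/--shSCR MEFs, at log2 fold changes of -2.07 ± 0.55 and -2.34 ± 0.56 (adjusted p = 0.0183 and 0.0126, edgeR). Footprints of the ligand gene Pdgfa fell by 0.92 ± 0.28 after knockout and by 0.99 ± 0.32 in the WT-shARF-labelled libraries. Footprints of Hbegf, a ligand of the EGF receptor, fell by 0.57 ± 0.13 after knockout, and those of Egfr itself fell by 0.58 ± 0.11 in the WT-shARF-labelled libraries, where 0 of the list were higher and 2 lower in footprints, and 1 higher and 1 lower in RNA.

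Other feedback genes numbered 13, with 11 or 12 tested. Dusp1, a phosphatase that acts mainly on p38 and JNK, was lower in both comparisons and both assays. Its RNA was 89.7 and 85.4 CPM in WT-shSCR, 53.6 and 47.1 CPM in the WT-shARF-labelled libraries and 55.3 and 55.8 CPM in Arf-/--shSCR MEFs. Its log2 fold change after knockout was -0.67 ± 0.20 in RNA (adjusted p = 0.0427, edgeR) and -0.80 ± 0.15 in footprints, and in the WT-shARF-labelled libraries it was -0.83 ± 0.19 and -0.63 ± 0.14. Errfi1, an inhibitor of the EGF receptor, rose after knockout by 0.98 ± 0.20 in RNA and by 0.98 ± 0.20 in footprints, and Spred3 footprints fell by 1.08 ± 0.38. In the WT-shARF-labelled libraries Dusp9 RNA rose by 0.95 ± 0.26, Dusp8 footprints rose by 2.04 ± 0.65 from 3 and 10 counts in WT-shSCR (1.32 to 3.29 over 10 alternatives, 5 of them past the threshold), and footprints of Lrig1 fell by 0.76 ± 0.23. In counts, 1 gene of this list was higher and 1 lower in RNA in each comparison with WT-shSCR, and 1 higher and 2 lower in footprints.

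Other ERK output genes, immediate early genes and cyclin D1 among them, numbered 18, with 14 to 16 tested in these fits. After knockout none was called in RNA by edgeR or DESeq2, with 2 at an unadjusted p under 0.05, and 1 was lower in footprints. This was Fos, an immediate early gene that ERK signalling induces, at -1.46 ± 0.47 (adjusted p = 0.0273, edgeR) from 29 and 22 counts against 55 and 23, with values from -1.85 to -0.85 over the alternatives. In the WT-shARF-labelled libraries 1 gene was higher and 1 lower in RNA, and 1 higher and 3 lower in footprints. Ccnd1, which encodes cyclin D1, rose by 0.51 ± 0.14 in RNA and by 0.79 ± 0.10 in footprints (adjusted p = 1.19e-06, edgeR). Ier3, another immediate early gene, fell by 1.27 ± 0.20 in RNA and by 0.57 ± 0.19 in footprints. Footprints of Fos fell by 1.78 ± 0.52 and those of Plaur, the urokinase receptor gene, by 0.37 ± 0.12. No gene of the 4 lists was called in TE by edgeR or DESeq2 in any comparison, with up to 4 of a list at an unadjusted p under 0.05.

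Of the 40 calls of these named pathway genes, counted over both assays and all 3 comparisons, DESeq2 kept 21, and leaving out a single library left 6 to 15 of the 24 to 31 calls that library enters. Shc1 and Ier3 RNA and Egfr and Ccnd1 footprints, all in the WT-shARF-labelled libraries against WT-shSCR, were the 4 calls that held under every alternative tried. For footprints of the other comparisons the count of calls that held says little, since without a WT-shSCR library (after knockout) or a WT-shARF-labelled library (direct comparison) edgeR called 0 or 1 genes of the whole table. The marker sums given above, macrophage as well as epithelial and mesothelial, moved with the same groups, and their part in these values was not tested.

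**Figure D4:**
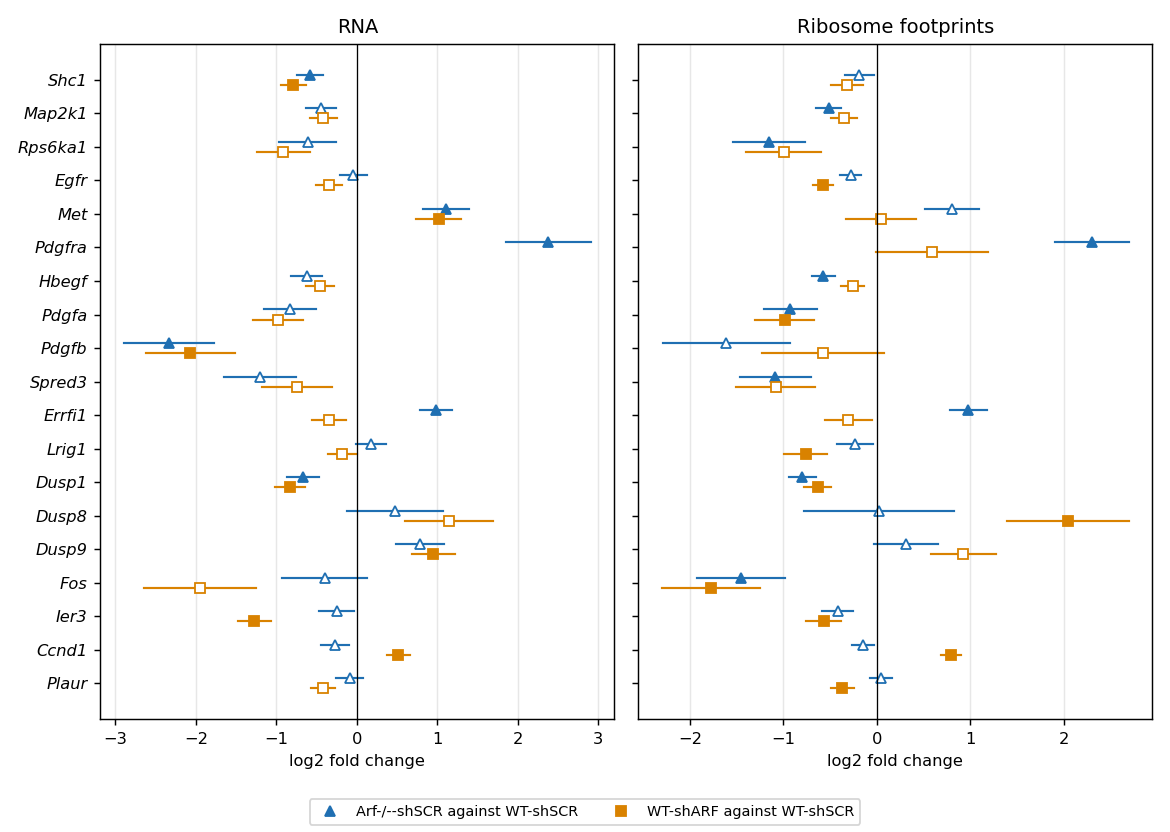
Log2 fold changes (edgeR, lines show ± 1 SE) of 19 pathway genes outside the 10, in RNA (left) and ribosome footprints (right), for Arf-/--shSCR (triangles) and WT-shARF as labelled (squares) against WT-shSCR MEFs. Filled symbols passed an adjusted p of 0.05, Pdgfra lies furthest to the right after knockout, and Pdgfra RNA of WT-shARF was not tested.

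The mean profile of the 10 genes across libraries was nearly flat in RNA and less so in footprints. Centred on each gene's own mean, the mean log2 CPM of the members lay between -0.10 and 0.10 in the 6 RNAseq libraries. It lay between -0.27 and 0.21 in the 6 ribosome profiling libraries, where the WT-shSCR replicates alone had 0.14 and -0.27. Single members, each of them part of that mean, followed it unevenly in RNA, with Pearson's r from -0.58 for Etv4 to 0.85 for Spry1. The genes outside the 10 whose RNA was most like the mean profile were Pqlc1, Psma5, Ripk4, Prr14 and Slc2a1, with r from 0.979 to 0.986 over 6 libraries among 10174 genes. Picked as the highest of so many values over so few libraries, these r cannot show shared regulation. Over the 6 ribosome profiling libraries the r of the same genes with the members' footprint profile ran from -0.49 for Pqlc1 to 0.65 for Slc2a1. Among the members it ran from -0.34 for Dusp4 to 0.91 for Etv4. A member's own values enter the profile and raise its r, so members and outside genes cannot be compared by r.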

How the data were processed

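The authors clipped adapters and split reads by barcode with FASTX tools. They removed molecular identifiers (UMI-tools), barcode bases (cutadapt) and reads of rRNA and other noncoding RNA (Bowtie2). They used TopHat to align what was left to mm10, and took counts on coding sequence from HTSeq. They deposited these counts, unscaled, in 12 files, 1 per library. Alignments that were not unique, left out by the counting, were 79.2% to 81.4% of those in RNAseq and 46.3% to 52.9% in ribosome profiling libraries. Rows that name no gene were left out. Removal of duplicate reads by molecular identifier is not given in the sources used here. Footprints were made with RNase T1.

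With R 4.3.3, edgeR 4.0.16 fitted 4 libraries per comparison of RNA or footprints and 8 for TE (assay, condition and their interaction), with TMM factors, filterByExpr and the two-sided quasi-likelihood test, adjusted by Benjamini-Hochberg over all genes with a threshold of 0.05. Standard errors are the log2 fold change over the root of F. DESeq2 1.42.0, the tool of the study, was an alternative. The other alternatives were leaving out each library, a replicate block, a culture block for TE, a fit of all groups together, RLE and upper quartile factors, a minimum of 10 counts per library and no filter. The scripts were tested on simulated data. With 2 against 2 libraries an exact permutation test cannot give a p below 0.333. Replicates differed by more than counting error (chi-square per gene 3.77 to 6.97). Positions are from GENCODE M21 (GRCm38).

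The members, the pathway lists and the marker lists were chosen with earlier results of these data known. Pathway genes are named where called in RNA or footprints of a comparison with WT-shSCR, at most the 6 smallest p per list and comparison, and the genes most like the members are the 5 with the highest r. Endothelial markers summed to 24.9 to 41.1 CPM in RNA and 11.8 to 29.4 CPM in footprints. Footprints of muscle markers summed to 18749 and 17926 CPM in WT-shSCR, 14615 and 14059 CPM in the WT-shARF-labelled libraries and 19726 and 20218 CPM in Arf-/--shSCR MEFs, and those of fibroblast markers to 48973 and 46016, 53386 and 52917, and 37350.1 and 37405 CPM.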

Additional observations from a re-analysis of the deposited data

Results flagged for a closer look

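The results below differed between knockout and knockdown in the direct comparison of Arf-/--shSCR MEFs with the WT-shARF-labelled libraries (edgeR's quasi-likelihood test, Benjamini-Hochberg adjusted over all genes, 2 libraries per group). Each direction rests on the label WT-shARF, which the counts of Cdkn2a went against.

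Of the 10 feedback and output genes, Spry2 footprints were higher in Arf-/--shSCR MEFs by 1.21 ± 0.31 on the log2 scale (adjusted p = 0.0193, edgeR), in 2 of 2 libraries against both others. Among receptors, Pdgfra was higher by 2.33 ± 0.53 in RNA (adjusted p = 0.034, edgeR) and by 1.71 ± 0.32 in footprints (adjusted p = 0.00204, edgeR). RNA counts of Pdgfra were 66 and 24 in Arf-/--shSCR MEFs and 3 and 19 in the WT-shARF-labelled libraries, and its RNA difference ran from 1.61 to 3.38 over 11 alternatives, 6 of them past the threshold.

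Among other feedback genes, Errfi1 was higher by 1.31 ± 0.18 in RNA (adjusted p = 0.00173, edgeR) and by 1.29 ± 0.21 in footprints (adjusted p = 0.000667, edgeR). Dusp8 footprints had a log2 difference of -2.02 ± 0.53 (adjusted p = 0.0229, edgeR) from 15 and 10 counts against 32 and 41. Among other ERK output genes, Ccnd1 had -0.80 ± 0.15 in RNA (adjusted p = 0.0105, edgeR) and -0.95 ± 0.09 in footprints (adjusted p = 1.00e-06, edgeR). Ier3 RNA was higher by 1.01 ± 0.22 (adjusted p = 0.0278, edgeR), and Plaur footprints by 0.41 ± 0.10 (adjusted p = 0.0179, edgeR).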

How the results depend on the processing

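Between 0 and 1 of the 10 genes were called under every alternative, and in RNA and TE the count was 0 in each. In footprints after knockout the call of Dusp4 was lost (0 called) with DESeq2 (adjusted p = 0.137), with no filter (adjusted p = 0.0919, edgeR) and without each library in turn (0 to 0). Without either WT-shSCR replicate no gene of the whole table was called in that fit, which rests on fewer libraries. In footprints of the WT-shARF-labelled libraries the count went from 0 to 1, Dusp4, under RLE factors, upper quartile factors, a fit of all groups together, a minimum of 10 counts per library and a replicate block, and leaving out a library gave 0 to 1, the 1 being Etv4 without WT-shSCR replicate 1 (log2 fold change 1.56, adjusted p = 0.0363, edgeR). In the direct comparison of footprints leaving out a library gave 0 to 1, and without either WT-shARF library 0 and 1 genes of the whole table were called. The cause was not tested.

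The values whose sign turned had passed no threshold as reported, and of them Etv4 footprints passed in 1 alternative (above). Dusp6 RNA after knockout was 0.0016 with DESeq2, 0.0030 with RLE factors, 0.0073 with no filter, 0.0093 with at least 10 counts, 0.0011 with all groups in one fit and 0.00017 with crossed numbers, and in the direct comparison -0.012 with upper quartile factors and -0.0019 with crossed numbers. In footprints of the WT-shARF-labelled libraries Spry4 was -0.0036 with DESeq2, -0.011 with upper quartile factors and -0.028 with the block, and Spred1 0.034 with the block. In TE after knockout Dusp5 was 0.072 with no filter and 0.0098 with all groups in one fit, and Spred1 0.039 with no filter. Phlda1 TE in the direct comparison was -0.0088 with at least 10 counts. Leaving out each library in turn, the log2 fold changes whose sign turned ranged as follows. In RNA after knockout they were -0.13 to 0.27 for Dusp5, -0.12 to 0.12 for Dusp6, -0.22 to 0.17 for Etv4, -0.45 to 0.16 for Etv5 and -0.022 to 0.0013 for Spry1. In RNA of the WT-shARF-labelled libraries they were -0.18 to 0.31 for Dusp5, -0.11 to 0.077 for Dusp6, -0.094 to 0.42 for Etv5 and -0.62 to 0.061 for Phlda1, and in the direct comparison -0.26 to 0.51 for Dusp4, -0.25 to 0.25 for Dusp5, -0.11 to 0.14 for Dusp6, -0.55 to 0.13 for Phlda1 and -0.12 to 0.23 for Spred1. In footprints after knockout they were -0.21 to 0.41 for Dusp5, -0.094 to 1.47 for Etv4, -0.20 to 0.28 for Etv5 and -0.25 to 0.98 for Spred1. In footprints of the WT-shARF-labelled libraries they were -0.048 to 0.56 for Dusp5, -0.30 to 0.042 for Dusp6, -0.080 to 1.56 for Etv4, -0.073 to 0.10 for Phlda1, -0.49 to 0.71 for Spred1, -0.025 to 0.55 for Spry1 and -0.41 to 0.29 for Spry4, and in the direct comparison -0.10 to 0.24 for Dusp4, -0.19 to 0.074 for Dusp6, -0.51 to 0.53 for Etv4, -0.0079 to 0.60 for Spred1 and -0.31 to 0.25 for Spry1. In TE after knockout they were -0.43 to 0.019 for Dusp4, -0.42 to 0.48 for Dusp5, -0.48 to 0.12 for Dusp6, -0.13 to 1.55 for Etv4, -0.14 to 0.43 for Etv5, -0.47 to 0.66 for Spred1 and -0.65 to 0.52 for Spry2. In TE of the WT-shARF-labelled libraries they were -0.67 to 0.38 for Dusp4, -0.29 to 0.59 for Dusp5, -0.39 to 0.19 for Dusp6, -0.45 to 1.38 for Etv4, -0.094 to 0.50 for Etv5, -0.15 to 0.74 for Phlda1, -0.68 to 0.43 for Spred1 and -0.99 to 0.20 for Spry2. In TE of the direct comparison they were -0.59 to 0.50 for Dusp4, -0.45 to 0.26 for Dusp5, -0.28 to 0.17 for Dusp6, -0.40 to 0.91 for Etv4, -0.36 to 0.50 for Phlda1, -0.0057 to 0.46 for Spred1, -0.046 to 0.84 for Spry2 and -0.68 to 0.82 for Spry4.

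Neither labels nor methods say whether equal replicate numbers share a culture or day, and low correlations cannot settle it. The correlation of same-numbered deviations was -0.07 to 0.01 in RNA and 0.01 to 0.04 in footprints over genes with at least 10 counts. The replicate block changed 1 member count, that of footprints in the WT-shARF-labelled libraries (0 to 1, above), a block for cultures in the TE fits changed none, and 3 of the 40 calls of the named pathway genes were lost with the replicate block. In RNA over genes with at least 30 counts the correlation was -0.12 in the knockout and in the direct comparison, so the numbers were also crossed, a choice made after seeing the data: all-gene calls went from 827 to 1438 and from 188 to 832, and members called stayed at 0. Calls over all genes moved more widely over the alternatives and left-out libraries. In RNA they ran from 222 to 1438 after knockout (845 as reported), 274 to 1011 in the WT-shARF-labelled libraries (765) and 6 to 832 in the direct comparison (273). In footprints they ran from 0 to 2075 (1988), 614 to 1376 (1147) and 0 to 1109 (900), and in TE from 6 to 123 (22), 0 to 50 (4) and 1 to 125 (5) in the same order, with 75, 50 and 18 by DESeq2. The calls of named pathway genes kept their direction in every alternative, while 19 of 40 were lost with DESeq2, and 24 of 31 without WT-shSCR replicate 1, 18 of 31 without its replicate 2, 16 and 19 of 25 without replicate 1 or 2 of the WT-shARF-labelled libraries, and 9 and 11 of 24 without those of Arf-/--shSCR. The footprint to RNA ratios of the 10 genes in WT-shSCR stayed within the replicate spread with RLE and upper quartile factors. Depth limits the scarcer genes most: Spry4 had 16 to 28 RNA counts per library, and its TE interval in the WT-shARF-labelled libraries ran from -0.25 to 2.29.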
